A study of Mus musculus with 72 samples.

Results

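The effect of the gut microbiota on liver transcripts in mice without a liver clock, early in the light phase, was measured in 6 of the 72 libraries of the series: 3 from germ-free (GF) and 3 from specific pathogen free (SPF) liver-specific Bmal1 knockout (LKO) mice collected at ZT2, all taken by their labels. ZT is zeitgeber time, counted in hours from lights on. Every mouse was a C57BL/6 male (substrain C57BL/6J in the study's methods) carrying Bmal1 fl/fl, LKO mice also carried Albumin-Cre, and Bmal1 fl/fl mice without Cre are named wild-type (WT). The study crossed genotype with microbial status at 6 ZT with 3 mice at each, to separate what the liver clock and the gut microbes each contribute to transcription in the liver. RNA came from whole liver, so a lower value of a transcript made by a minor cell type may mean fewer such cells or less RNA per cell, and these cannot be told apart. Albumin-Cre acts in hepatocytes, so the other liver cells of LKO mice kept Bmal1. GF mice were bred in isolators and SPF mice in a conventional vivarium, so microbial status and colony cannot be told apart either.

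Bmal1, named Arntl in the annotation used, encodes the transcription factor that with Clock drives the daily cycle of its own repressors (the Per and Cry genes) and of the output factors Dbp, Tef and Hlf. Gut bacteria reach the liver through the portal vein with products such as secondary bile acids, short-chain fatty acids and cell wall fragments. Germ-free mice are known for a bile acid pool that was never modified by bacteria, for little gut immunoglobulin A and for a shifted hepatic drug metabolism. ZT2 falls shortly after the nightly feeding period of the mouse, when its liver passes from the fed to the fasting state.

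A clock transcript at ZT2 separated all 6 LKO libraries from the 6 WT libraries of that time, as their labels do. Values are given as CPM, counts scaled to a common library total after TMM normalisation. Nr1d1, the repressor REV-ERBα, lay between 0.802 and 4.32 CPM in LKO and between 16.7 and 50.2 CPM in WT libraries. The Bmal1 gene itself did not serve as a check, since counts per gene include the exons left by the deletion. Depth was even, from 18939604 to 20188118 counts per LKO library, while the TMM factors ran from 1.06 to 1.16 in SPF LKO and from 0.965 to 0.987 in GF LKO libraries.

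Of 13596 genes tested, 1213 were called between GF LKO and SPF LKO mice, or 8.92% (edgeR's quasi-likelihood test, Benjamini-Hochberg adjusted p under 0.05), 776 higher in GF LKO (5.71%) and 437 lower (3.21%). The changes were mostly modest: the median log2 fold change of the genes called higher was 0.59 and that of the genes called lower was -0.78, and 256 genes differed at least 2-fold, 109 of them higher and 147 lower. Among all genes tested, 36.5% had 3 GF values entirely above or below the 3 SPF values, and 1198 of the 1213 called genes did. The number of calls depended on single libraries. It was 427 without SPF LKO replicate 3, 342 without SPF LKO replicate 1, 462 without GF LKO replicate 1, 749 without GF LKO replicate 2 and 435 without GF LKO replicate 3.

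**Figure D1:**
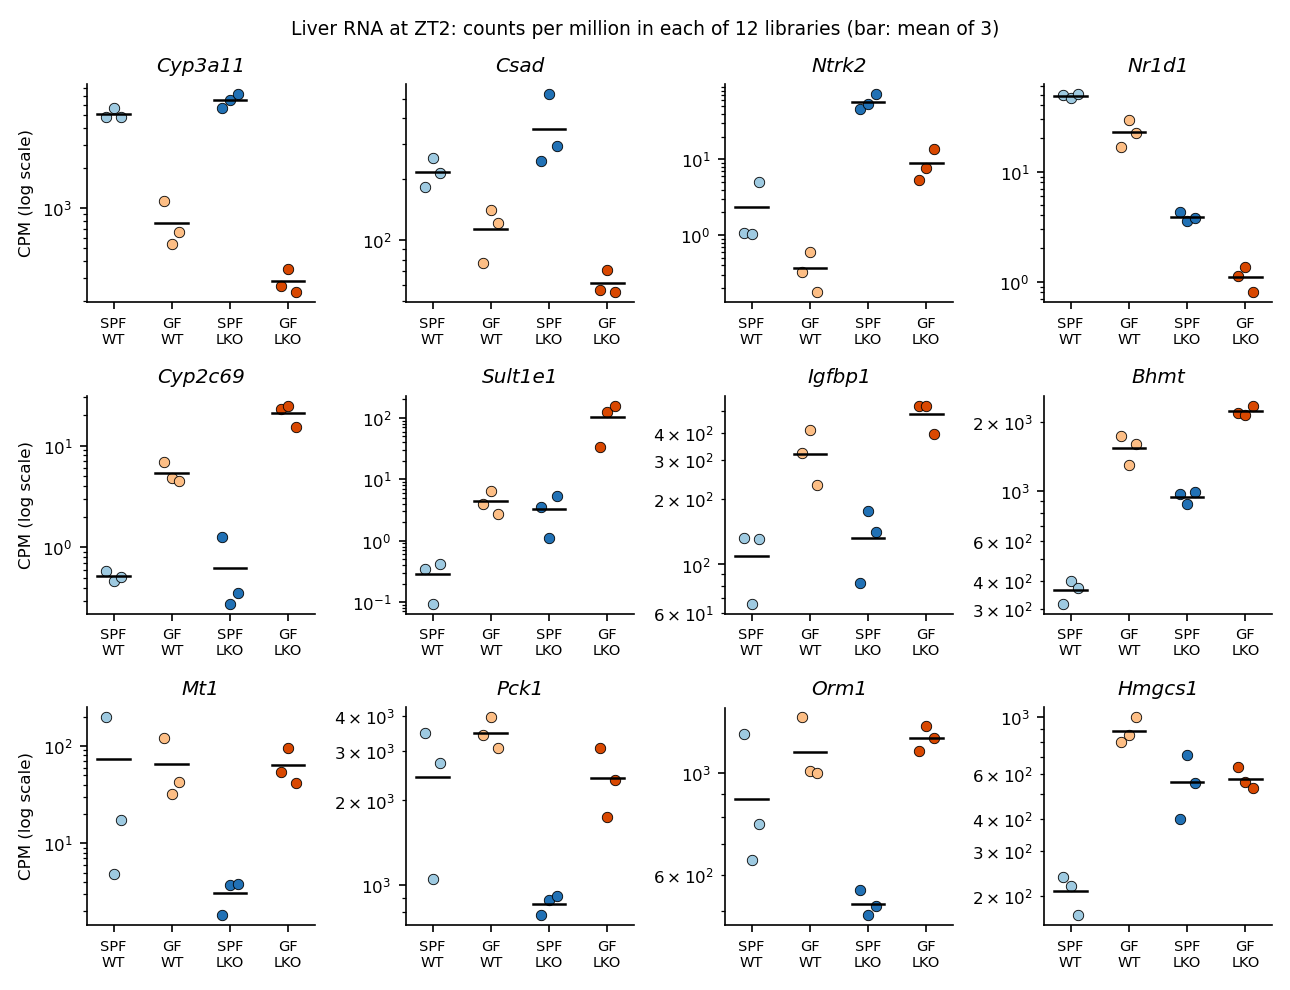
Normalised counts (CPM, log scale) of selected genes in the ZT2 libraries, 1 panel per gene, with 1 point per mouse and a bar at the mean of the 3 mice, by microbial status and genotype. Cyp3a11 lay between 235 and 351 CPM in the GF LKO libraries and between 5676 and 7174 CPM in the SPF LKO libraries.

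The P450 enzymes that clear drugs and bile acids held the change with the smallest p-value. Cyp3a11 (ENSMUSG00000056035, chromosome 5, bases 145854426 to 145879964 of GRCm38, minus strand), the main mouse enzyme of the CYP3A family and a classic target of the xenobiotic receptor PXR, stood at 5676, 6513 and 7174 CPM in the 3 SPF LKO libraries and at 261, 351 and 235 CPM in the 3 GF LKO libraries. No GF library came near an SPF library, and the mean was 22.9 times higher with microbes (log2 fold change -4.51 ± 0.27 (SE), adjusted p = 2.3e-06). The neighbouring family members fell with it. Cyp3a59 was 114, 95.5 and 118 CPM in SPF LKO and 25.9, 28.6 and 40.3 CPM in GF LKO (log2 fold change -1.79 ± 0.20, adjusted p = 0.00083). Cyp3a25 was 812, 822 and 922 CPM in SPF LKO against 399.8, 429.6 and 503 CPM in GF LKO (log2 fold change -0.94 ± 0.15, adjusted p = 0.005). For both genes the groups were separate. Cyp3a44 was near the detection limit, with 35 counts over the 3 SPF LKO libraries and 1 count over the 3 GF LKO libraries, a ratio of 33.5 with a 95% counting interval of 5.62 to 1360. CYP3A genes are close copies of each other, and reads that matched several of them had been dropped before counting, so each gene's value rests on its distinct stretches.

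The start of Cyp3a11 is shown because the gene had the smallest p-value of the comparison. RefSeq (GRCm38.p6) gives these 300 bases, 250 before and 50 after the start, at chr5:145879805-145880104 on the minus strand, with the nuclear receptor hexamer AGGTCA in capitals.
Cyp3a11: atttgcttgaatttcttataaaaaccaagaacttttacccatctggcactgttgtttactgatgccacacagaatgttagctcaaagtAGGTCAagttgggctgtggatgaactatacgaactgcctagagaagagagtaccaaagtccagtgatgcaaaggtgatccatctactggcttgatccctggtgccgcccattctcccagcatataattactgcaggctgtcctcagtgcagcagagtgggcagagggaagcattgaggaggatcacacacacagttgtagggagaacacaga
AGGTCA, searched on both strands, occurred once there, starting 162 bases before the start site, and 16.3% of 32851 mouse promoters of this length held at least 1 copy. Binding was not measured.

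Other genes of drug metabolism moved in both directions. Cyp2c40, of the CYP2C family, was 3.71, 0.654 and 0.796 CPM in SPF LKO and 54.6, 63.3 and 36.3 CPM in GF LKO libraries (log2 fold change 4.88 ± 0.52, adjusted p = 0.00082), with every GF value above every SPF value. Of the 33 listed receptors and P450 enzymes tested, 2 were called higher (Cyp2c40 and Cyp2a12) and 3 lower (Cyp3a11, Cyp3a25 and Cyp3a59), with a list median of 0.06 on the log2 scale. The median of all genes tested was -0.02, with 5.71% called higher and 3.21% lower. Cyp2a12 moved by 0.37 on the log2 scale and its call was lost without most single libraries, with an adjusted p of up to 0.15 without SPF LKO replicate 3.

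Conjugating enzymes followed, with 4 of 24 sulfotransferase and glucuronosyltransferase genes called higher and 2 lower, beside 5.71% and 3.21% of all genes tested. The estrogen sulfotransferase Sult1e1 was 3.53, 1.12 and 5.35 CPM in SPF LKO and 33, 124 and 157 CPM in GF LKO libraries. All 3 GF values exceeded all SPF values, though GF replicate 1 lay well below the other GF values (log2 fold change 4.96 ± 0.58, adjusted p = 0.0011). Sult1a1, which sulfates phenols, rose from 108 to 139.8 CPM to 196 to 304 CPM (log2 fold change 0.91 ± 0.17, adjusted p = 0.0076). Sult1b1 and Ugt2b1 were called higher with log2 fold changes of 0.67 and 0.90, and Sult1c2 and Ugt1a9 lower with -0.56 and -1.45. Those 4 calls were fragile, with adjusted p-values of up to 0.13 without GF LKO replicate 3, 0.078 without SPF LKO replicate 3, 0.13 without GF LKO replicate 1 and 0.12 without GF LKO replicate 3. Among the 13 carboxylesterases, which hydrolyse esters of drugs and lipids, Ces2a fell from 457 to 517 CPM to 279.6 to 312 CPM (log2 fold change -0.72 ± 0.12, adjusted p = 0.0061), Ces1d fell by a log2 fold change of -0.95, with an adjusted p of up to 0.051 without GF LKO replicate 2, and Ces3b rose from 383 to 444 CPM to 654 to 714 CPM. Of 26 glutathione and NRF2 genes 5 were called higher and 0 lower (Gstm6, Gstt2, Gstk1, Gstz1 and Mgst1), none of which kept its call without SPF LKO replicate 1, and 2 of 26 were called once gene length was taken into account.

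Transcripts with a sex bias in the liver, set there by the pulses of growth hormone, changed in both classes although every mouse was male. Of 22 male-biased genes 11 were called higher in GF LKO mice and 0 lower (list median 0.67), beside 5.71% and 3.21% of all genes tested. Without SPF LKO replicate 3 the number called higher was 2. The pheromone carrier Mup1 was 33.3, 16.3 and 10.5 CPM in SPF LKO and 77, 126 and 149.7 CPM in GF LKO libraries (log2 fold change 2.55 ± 0.44, adjusted p = 0.0061), so the groups were separate and the highest SPF value was that of replicate 1. Mup16 (6.37, 2.94 and 1.72 against 6.69, 51.5 and 62.6 CPM) was called with a GF replicate 1 just above SPF replicate 1. Mup17 (6.19, 1.12 and 0.884 against 3.53, 142 and 104 CPM) was called although the groups overlapped, since GF replicate 1 lay among the SPF values. The major urinary protein genes are near-identical copies, and their separate values are uncertain. Moxd1, a monooxygenase-like protein, was 70.1, 7.8 and 11.9 CPM in SPF LKO and 131, 554 and 553 CPM in GF LKO libraries (log2 fold change 3.78 ± 0.77, adjusted p = 0.011, 0.051 without SPF LKO replicate 3), with the same libraries, SPF replicate 1 and GF replicate 1, lying closest to the other group.

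Other male-biased genes moved less. Elovl3, an elongase of long fatty acids, rose from 1120 to 1705 CPM to 2191 to 2685 CPM (log2 fold change 0.75 ± 0.18, adjusted p = 0.024, 0.098 without SPF LKO replicate 3). Cyp7b1, an oxysterol hydroxylase of the acidic bile acid pathway, was 928, 703 and 552 CPM in SPF LKO and 1253, 1548 and 1638 CPM in GF LKO libraries (log2 fold change 1.02 ± 0.22, adjusted p = 0.014, 0.063 without SPF LKO replicate 3). Cyp4a12b, an omega hydroxylase, was called with a log2 fold change of 0.76 and an adjusted p of up to 0.077 without SPF LKO replicate 1. Of 21 female-biased genes only 8 were expressed enough to be tested. They gave 2 called higher and 3 lower, beside 5.71% and 3.21% of all genes tested. Cyp2c69 stood at 1.26, 0.28 and 0.354 CPM in SPF LKO and at 23, 24.6 and 15.2 CPM in GF LKO libraries, the largest fitted increase among the genes called (log2 fold change 5.02 ± 0.38, adjusted p = 2.9e-05). The groups were far apart. Cyp17a1, a steroid hydroxylase, was called with a log2 fold change of 1.63 and an adjusted p of up to 0.079 without SPF LKO replicate 1. Ntrk2, a neurotrophin receptor, fell from 46.3, 52.9 and 71.8 CPM to 5.35, 7.72 and 13.7 CPM (log2 fold change -2.67 ± 0.43, adjusted p = 0.005), and Abcd2, a peroxisomal transporter, from 3.75, 13.7 and 7.29 CPM to 3.37, 1.29 and 0.856 CPM (log2 fold change -2.16 ± 0.54, adjusted p = 0.025, 0.11 without GF LKO replicate 3). SPF replicate 1 and GF replicate 1 again lay closest to each other for Abcd2.

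Transcripts of some amino acid breakdown enzymes, of several branches, were higher in GF LKO mice. Of 35 listed enzymes 11 were called higher and 0 lower, beside 5.71% and 3.21% of all genes tested. The median log2 fold change was 0.33, and the number called higher was 7 to 12 when each library was left out. The kynurenine branch held Acmsd, which diverts tryptophan from NAD synthesis, at 28.8, 36.9 and 25.7 CPM in SPF LKO and 125, 124 and 106 CPM in GF LKO libraries (log2 fold change 1.96 ± 0.22, adjusted p = 0.00094). No GF value came near an SPF value. Haao, the enzyme next to it in that branch, rose from 469 to 559 CPM to 758 to 803 CPM. Tyrosine breakdown held Tat (730.5 to 1035 against 1579 to 2547 CPM) and Hgd (782 to 918 against 1226 to 1359 CPM), with log2 fold changes of 1.2 and 0.59 and adjusted p-values of 0.013 and 0.0064. Groups were separate for all 4 genes, while the call of Tat had an adjusted p of up to 0.063 without SPF LKO replicate 3. Arg1, the last enzyme of the urea cycle, rose from 1110 to 1252 CPM to 1714 to 1860 CPM (log2 fold change 0.64 ± 0.11, adjusted p = 0.0061), and Agxt, which detoxifies glyoxylate, from 416 to 514 CPM to 639 to 717 CPM (log2 fold change 0.59 ± 0.11, adjusted p = 0.0077).

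Methionine, folate and sulfur metabolism moved as much. Of 26 genes tested 9 were called higher and 1 lower (median 0.35), beside 5.71% and 3.21% of all genes tested. The number called higher was 6 to 9 when each library was left out. Bhmt, which returns homocysteine to methionine with betaine as methyl donor, was 966, 874 and 981 CPM in SPF LKO and 2196, 2145 and 2359 CPM in GF LKO libraries (log2 fold change 1.25 ± 0.13, adjusted p = 0.00082). The groups were tight and far apart. Its copy Bhmt2 rose by a log2 fold change of 0.64, Dmgdh, which strips methyl groups from the dimethylglycine Bhmt produces, by 0.84, Ahcy, which splits S-adenosylhomocysteine, by 0.77, and Cth, which makes cysteine from cystathionine, by 0.99, all with adjusted p-values between 0.003 and 0.0053. The gene that fell was Csad, the decarboxylase that commits cysteine to taurine synthesis. It was 248, 526 and 293 CPM in SPF LKO and 56.8, 71.1 and 55.2 CPM in GF LKO libraries, and every SPF value lay far above every GF value (log2 fold change -2.54 ± 0.28, adjusted p = 0.00083). Taurine is the amino acid that mouse liver joins to bile acids.

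**Figure D2:**
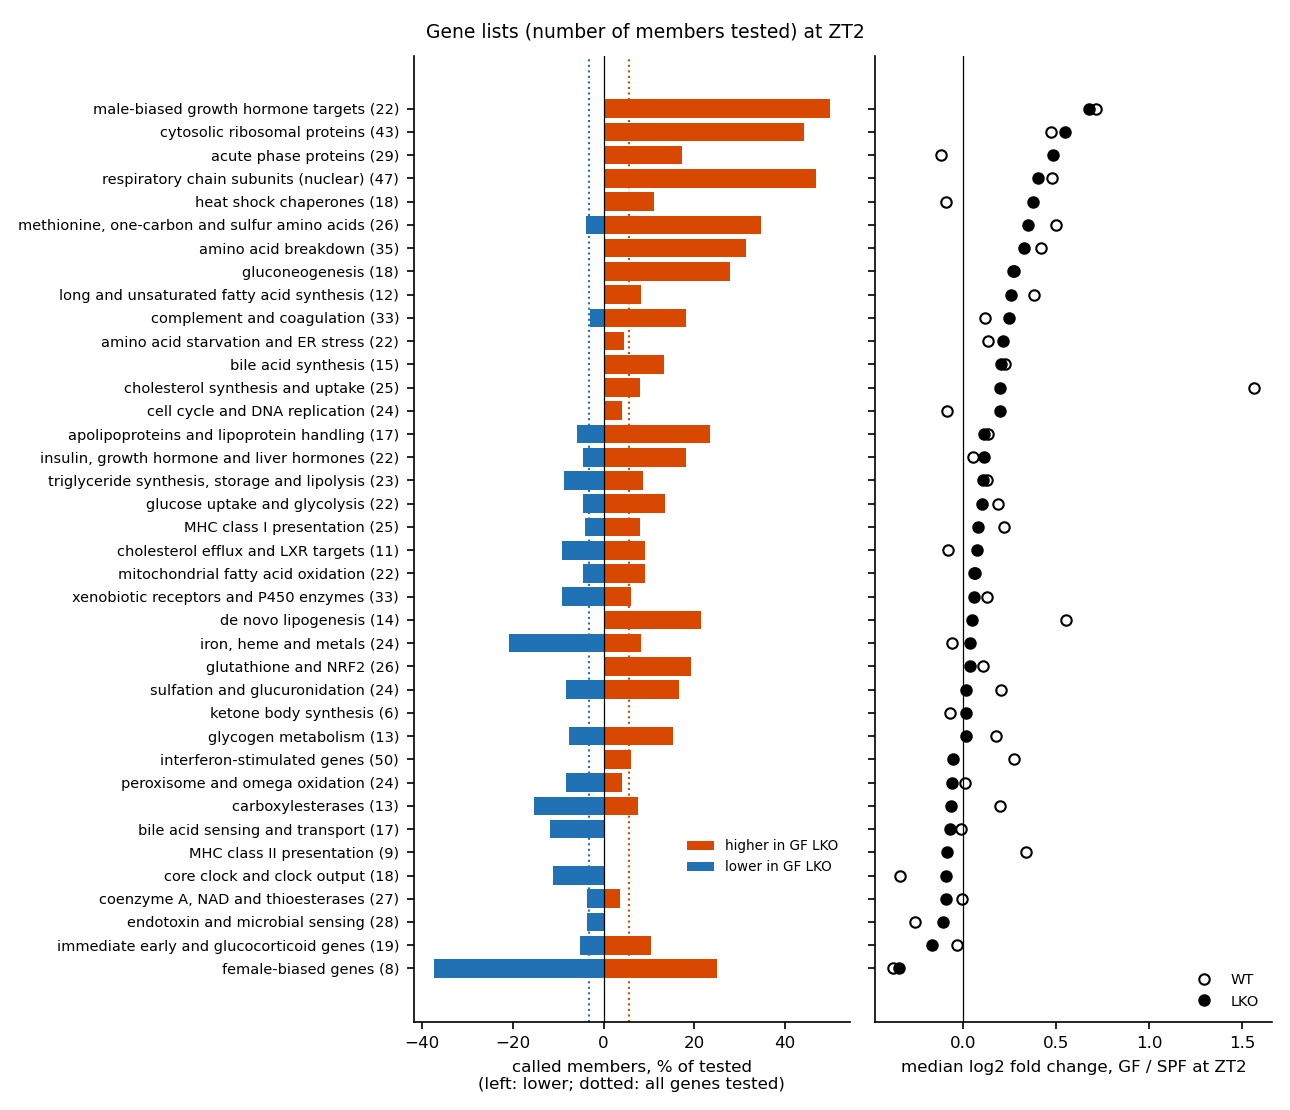
Share of each gene list's tested members called higher (right) and lower (left) in GF LKO mice, in percent (left panel, dotted lines for all genes tested), and the median log2 fold change, GF over SPF, in LKO (filled) and WT mice (open) at ZT2 (right panel). By number, respiratory chain subunits (22 of 47 higher) and ribosomal proteins (19 of 43 higher) held the most calls, and the medians of the cholesterol list were 0.20 in LKO and 1.56 in WT.

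Some transcripts of glucose production were higher in GF LKO mice. Of 18 gluconeogenesis genes 5 were called higher and 0 lower (median 0.27), beside 5.71% and 3.21% of all genes tested. None of the 5 was called without SPF LKO replicate 1. Pck1, which makes phosphoenolpyruvate in the cytosol, was 781, 882 and 910.4 CPM in SPF LKO and 3077, 1751 and 2357 CPM in GF LKO libraries (log2 fold change 1.48 ± 0.32, adjusted p = 0.015, 0.072 without SPF LKO replicate 1). Every GF value lay above the highest SPF value, and the GF values spread more than the SPF values. G6pc, which releases free glucose, was 556, 528 and 625 CPM in SPF LKO and 1002, 1185 and 1025 CPM in GF LKO libraries (log2 fold change 0.91 ± 0.20, adjusted p = 0.015, 0.066 without SPF LKO replicate 1), also without overlap. Its transporter Slc37a4 and the shuttle enzymes Got1 and Mdh1 had log2 fold changes of 0.59, 0.72 and 0.61, with adjusted p-values of 0.017, 0.013 and 0.015. Mitochondrial Pck2 was not called, at 3.49, 3.04 and 2.12 CPM in SPF LKO and 2.35, 1.35 and 1.98 CPM in GF LKO libraries (log2 fold change -0.60 ± 0.29, adjusted p = 0.2). Fbp1 (697 to 804 against 791 to 841 CPM, adjusted p = 0.49) and Eno1 (51.5 to 60.3 against 61.1 to 80.0 CPM, adjusted p = 0.19) were not called either.

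In glycolysis 3 of 22 genes were called higher and 1 lower, and in glycogen metabolism 2 of 13 higher and 1 lower, beside 5.71% and 3.21% of all genes tested. Pdk4, a pyruvate dehydrogenase kinase, fell from 46.4, 65.7 and 49.2 CPM to 24.8, 21.8 and 34.2 CPM (log2 fold change -1.0 ± 0.23, adjusted p = 0.017, 0.073 without GF LKO replicate 1). Pfkfb1, Tpi1 and Pgk1 were called higher with log2 fold changes of 0.82, 0.50 and 0.59, and lost their calls with adjusted p-values of up to 0.13 without GF LKO replicate 1, 0.093 without SPF LKO replicate 1 and 0.068 without SPF LKO replicate 3. Ppp1r3g, a glycogen-targeting subunit of protein phosphatase 1 that is induced by feeding, was 0.392, 0.0934 and 0.354 CPM in SPF LKO and 4.55, 4.21 and 4.06 CPM in GF LKO libraries. The separation was wide, but the SPF values were close to 0 and the call was kept without only 1 of the 6 libraries (log2 fold change 3.89 ± 0.90, adjusted p = 0.019, 0.071 without SPF LKO replicate 1). Gyg, the primer of glycogen synthesis, had a log2 fold change of 0.60, with an adjusted p of up to 0.072 without GF LKO replicate 3.

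In the list of insulin, growth hormone and liver hormone genes, which also holds receptors and signaling genes, 4 of 22 were called higher and 1 lower. These counts stand beside 5.71% and 3.21% of all genes tested. Igfbp1, the binding protein that insulin represses, was 82.1, 175 and 141 CPM in SPF LKO and 528, 530 and 394 CPM in GF LKO libraries (log2 fold change 1.87 ± 0.30, adjusted p = 0.005). Igfbp2 was 285, 325 and 351 CPM in SPF LKO and 942, 598 and 702 CPM in GF LKO libraries (log2 fold change 1.22 ± 0.18, adjusted p = 0.0034). Both binding proteins separated the groups and kept their calls whichever library was left out. Inhbe, a hepatokine subunit of activin E, went the other way, from 31, 33.4 and 18.8 CPM to 6.53, 9.71 and 8.5 CPM (log2 fold change -1.75 ± 0.24, adjusted p = 0.003). Bcl6, a repressor of female-biased genes, was called at the edge of the threshold with overlapping groups, 18, 10.6 and 10.7 CPM against 81.8, 12 and 59.1 CPM, and an adjusted p of up to 0.19 without GF LKO replicate 1. Tsc22d3, a direct glucocorticoid target, rose from 129, 113 and 168 CPM to 463, 297 and 347 CPM (log2 fold change 1.43 ± 0.35, adjusted p = 0.025, 0.096 without SPF LKO replicate 1). Among the 19 immediate early and glucocorticoid genes tested only it, Tat and the lowered Jund (9.53 to 11 against 2.78 to 5.19 CPM, adjusted p up to 0.064 without GF LKO replicate 3) were called.

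Bile acid genes differed in a few enzymes, and the counts stand beside 5.71% of all genes called higher and 3.21% lower. Of 15 synthesis genes 2 were called higher, Cyp7b1 above and Cyp2c70, which makes the muricholic acids of the mouse. Cyp2c70 was 1515, 1007 and 1109 CPM in SPF LKO and 2936, 3022 and 2883 CPM in GF LKO libraries, without overlap (log2 fold change 1.28 ± 0.17, adjusted p = 0.003). The rate-limiting enzyme Cyp7a1 was not called, at 191, 257 and 146 CPM in SPF LKO and 81.7, 157 and 156 CPM in GF LKO libraries (log2 fold change -0.59 ± 0.39, adjusted p = 0.36). Of 17 sensors and transporters 2 were called lower, the phospholipid floppase Abcb4 (log2 fold change -0.39, adjusted p up to 0.14 without GF LKO replicate 3) and the drug exporter Abcb1a (-1.41, up to 0.19 without SPF LKO replicate 3), and both calls were lost whichever of the 6 libraries was left out.

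Of 25 cholesterol synthesis and uptake genes 2 were called higher in LKO mice, beside 5.71% of all genes: Ebp (184 to 228 against 301 to 369.8 CPM, log2 fold change 0.71, adjusted p = 0.007) and Acat2 (50.2 to 77.7 against 83 to 104 CPM, log2 fold change 0.59, adjusted p = 0.037, 0.15 without SPF LKO replicate 1), with a list median of 0.20. Ebp is a sterol isomerase late in the pathway and Acat2 a thiolase at its entry. Hmgcs1, the synthase that makes HMG-CoA, was 398, 714 and 554 CPM in SPF LKO and 638, 556 and 530.3 CPM in GF LKO libraries (log2 fold change 0.05 ± 0.19, adjusted p = 0.89), and the GF values lay inside the SPF range.

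Lipid synthesis and storage showed a few changes, and the counts stand beside 5.71% of all genes called higher and 3.21% lower. Of 14 lipogenesis genes 3 were called higher: Thrsp, a lipogenic regulator (100 to 145 against 234 to 266 CPM, log2 fold change 0.97, adjusted p = 0.0064), Acss2, the cytosolic acetate-activating enzyme (198 to 313 against 373 to 448 CPM, 0.69, up to 0.15 without SPF LKO replicate 1), and Insig2, which retains SREBP in the endoplasmic reticulum (0.51, up to 0.13 without GF LKO replicate 3). The triglyceride list had 2 of 23 called higher and 2 lower. The lowered ones were Angptl8, an insulin-induced inhibitor of lipoprotein lipase (25.8, 67 and 35.1 CPM against 14.3, 9.17 and 13.1 CPM), and G0s2, an inhibitor of the lipase ATGL (19.8, 44.3 and 22.8 CPM against 11.5, 6.1 and 7.7 CPM), with log2 fold changes of -1.8 and -1.78. Both separated the groups, with SPF replicate 2 far above the others, and both calls were lost whichever of the 6 libraries was left out (adjusted p up to 0.14 without SPF LKO replicate 2 and 0.13 without GF LKO replicate 3). Lipc and Cideb had log2 fold changes of 0.46 and 0.30 and adjusted p-values of up to 0.084 without SPF LKO replicate 1 and 0.17 without GF LKO replicate 1.

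The counts for fat oxidation genes stand beside 5.71% of all genes called higher and 3.21% lower. Ppara, the fatty acid receptor that drives the pathway, fell from 82.1, 83.2 and 75.3 CPM to 42.8, 45.7 and 42.4 CPM (log2 fold change -0.88 ± 0.20, adjusted p = 0.018, 0.072 without GF LKO replicate 3), with tight groups and no overlap. Its target Cpt1a (238 to 310.3 against 222 to 247 CPM, adjusted p = 0.6), Fabp1 (2074 to 3172 against 2540 to 4176 CPM, 0.33) and Aldh3a2 (144 to 163 against 117 to 142 CPM, 0.41) were not called. Of 22 mitochondrial oxidation genes Etfb and Echs1 were called higher (log2 fold changes 0.81 and 0.33, up to 0.078 without SPF LKO replicate 1 and 0.18 without SPF LKO replicate 1) and Ppara lower, of 6 ketone body genes none, and of 24 peroxisomal and omega oxidation genes Cyp4a32 was higher (0.75, up to 0.19 without GF LKO replicate 1) and Acaa1b (-0.58, up to 0.16 without GF LKO replicate 3) and Abcd2 lower. Nudt7, a peroxisomal hydrolase that degrades coenzyme A, was more clearly changed, from 757, 826 and 753 CPM to 1464, 1378 and 1261 CPM (log2 fold change 0.81 ± 0.13, adjusted p = 0.0051). Vnn3, of the pantetheinase family, fell from 69.8 to 82.5 CPM to 41.5 to 50.6 CPM (log2 fold change -0.69 ± 0.11, adjusted p = 0.0049).

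Of 24 iron, heme and metal genes 5 were called lower and 2 higher, beside 3.21% and 5.71% of all genes tested. Slc40a1, the iron exporter ferroportin, was 150, 174 and 151 CPM in SPF LKO and 106, 97.5 and 102 CPM in GF LKO libraries (log2 fold change -0.64 ± 0.10, adjusted p = 0.0037). Alas1, the rate-limiting enzyme of heme synthesis, was 106, 183 and 155 CPM in SPF LKO and 69.2, 73 and 40.9 CPM in GF LKO libraries (log2 fold change -1.28 ± 0.24, adjusted p = 0.008). Groups were separate for both. Id1 and Smad7, targets of BMP signaling, which sets hepcidin, fell from 2.88, 12.1 and 4.24 CPM to 1.55, 0.971 and 1.18 CPM and from 14.4, 17.5 and 6.28 CPM to 4.76, 4.32 and 5.24 CPM (log2 fold changes -2.37 ± 0.49 and -1.41 ± 0.32, adjusted p-values 0.012 and 0.017, up to 0.053 without GF LKO replicate 3 and 0.074 without SPF LKO replicate 1). Hamp, which encodes hepcidin and was named after its values were seen, fell from 426, 741 and 255 CPM to 142, 193 and 191 CPM (log2 fold change -1.44 ± 0.39, adjusted p = 0.036, 0.13 without GF LKO replicate 1). Id3, another BMP target outside the list, fell from 87.9, 91 and 39.7 CPM to 13.8, 17.4 and 13.8 CPM, with SPF replicate 3 the SPF value nearest to the GF values (log2 fold change -2.28 ± 0.56, adjusted p = 0.024, 0.092 without GF LKO replicate 3). Hfe rose by 0.46 on the log2 scale (adjusted p up to 0.056 without SPF LKO replicate 1). Without GF LKO replicate 3 only 2 of the list were called lower.

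The metallothionein Mt1, which binds zinc and copper and is induced by metals and glucocorticoids, was 1.83, 3.73 and 3.8 CPM in SPF LKO and 54, 96 and 42.1 CPM in GF LKO libraries. Every GF value lay far above every SPF value, yet the call was lost without each of the 6 libraries (log2 fold change 4.36 ± 1.08, adjusted p = 0.025, 0.11 without SPF LKO replicate 1). Its neighbour Mt2 was not called, with 0, 0 and 1 counts in SPF LKO and 25, 54 and 4 counts in GF LKO libraries. The start of Mt1 is shown because metal response elements are known there. RefSeq (GRCm38.p6) places these 300 bases at chr8:94178839-94179138 on the plus strand, and capitals mark the core TGCNCNC.
Mt1: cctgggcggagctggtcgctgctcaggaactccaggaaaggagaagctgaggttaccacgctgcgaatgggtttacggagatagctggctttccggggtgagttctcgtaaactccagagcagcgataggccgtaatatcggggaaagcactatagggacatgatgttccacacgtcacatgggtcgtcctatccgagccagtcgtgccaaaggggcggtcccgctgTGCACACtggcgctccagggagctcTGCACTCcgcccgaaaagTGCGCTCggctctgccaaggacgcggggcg
The core, searched on both strands, occurred 3 times, starting 23 bases before and at bases 3 and 21 after the start site, a number reached by 7.1% of 32851 promoters, while 51% held at least 1.

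Of the 18 clock genes 0 were called higher and 2 lower in GF LKO mice, beside 3.21% of all genes called lower. Nr1d1 was 4.32, 3.55 and 3.8 CPM in SPF LKO and 1.12, 1.35 and 0.802 CPM in GF LKO libraries, so that even its low level without hepatocyte Bmal1 fell in every GF mouse (log2 fold change -1.83 ± 0.24, adjusted p = 0.0029). Hlf, a PAR bZIP output factor, moved by -0.41, with an adjusted p of up to 0.19 without GF LKO replicate 1. Among the rest Per1 (7.8, 5.37 and 8.44 against 28.3, 11.4 and 18 CPM, adjusted p = 0.14) was separate but not called, and Nr1d2, Cry1, Dbp, Per2, Per3, Tef and Arntl had log2 fold changes of -0.56, 0.23, -0.62, -0.19, -0.38, 0.11 and -0.15 with adjusted p-values between 0.13 and 0.75. Clock, Npas2, Cry2, Rora, Nfil3 and Bhlhe40 were not called either, and Bhlhe41 had too few counts to be read. In whole liver, cells that kept Bmal1 and hepatocytes cannot be told apart in these values.

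Several secreted plasma proteins of the hepatocyte were higher in GF LKO mice. The counts stand beside 5.71% of all genes called higher and 3.21% lower. Of 29 acute phase genes 5 were called higher and 0 lower (median 0.48), 2 without SPF LKO replicate 3. Orm1, an acid glycoprotein, was 556, 490.4 and 512 CPM in SPF LKO and 1113, 1262 and 1187 CPM in GF LKO libraries (log2 fold change 1.19 ± 0.19, adjusted p = 0.005). The pentraxin Crp rose from 533 to 559.5 CPM to 866 to 1068 CPM (adjusted p = 0.0096), its relative Apcs from 81.6 to 106 CPM to 185 to 231 CPM (up to 0.077 without SPF LKO replicate 1), the protease inhibitor Serpina3k from 8098 to 10310 CPM to 16800 to 18270 CPM (up to 0.061 without SPF LKO replicate 3) and the heme scavenger Hpx from 2841 to 3861 CPM to 4963 to 5303 CPM (up to 0.15 without SPF LKO replicate 1). The classic inducible members Saa1 and Saa2 were not called (log2 fold changes 1.9 and 1.53, adjusted p-values 0.1 and 0.18). Of 33 complement and coagulation genes 6 were called higher and 1 lower. The membrane attack genes C9 (1239 to 1523 against 2448 to 2805 CPM), C8b (383 to 490.2 against 652 to 843 CPM) and C8g (412 to 488 against 714 to 764 CPM) had log2 fold changes of 0.95, 0.75 and 0.72 and adjusted p-values of 0.0053, 0.0079 and 0.0057. F10, Mbl1 and Serpind1 lost their calls with adjusted p-values of up to 0.061 without SPF LKO replicate 1, 0.1 without SPF LKO replicate 1 and 0.12 without SPF LKO replicate 3.

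Of 17 lipoprotein genes 4 were called higher and 1 lower (median 0.11), beside 5.71% and 3.21% of all genes tested. With gene length taken into account 2 were higher and 1 lower. Apom, the carrier of sphingosine 1-phosphate on HDL, was 98.9, 124 and 96.3 CPM in SPF LKO and 228, 189 and 208 CPM in GF LKO libraries (log2 fold change 0.97 ± 0.12, adjusted p = 0.0023). Apoa2 rose from 5561 to 7339 CPM to 10960 to 12720 CPM and Apoc3 from 1168 to 1470 CPM to 1903 to 2073 CPM (adjusted p-values 0.005 and 0.0081), the latter with an adjusted p of 0.061 and a log2 fold change of 0.39 once gene length was taken into account. Apoa1 rose by 0.55 on the log2 scale, up to 0.19 without SPF LKO replicate 1. Lipg, an endothelial lipase that breaks down HDL, fell from 3.66, 3.92 and 4.07 CPM to 1.55, 1.02 and 0.749 CPM (log2 fold change -1.8 ± 0.25, adjusted p = 0.003). Nr1h3 (LXRα) rose from 78.3 to 94.6 CPM to 114 to 141 CPM (up to 0.052 without SPF LKO replicate 1) and Soat2, which esterifies cholesterol for lipoproteins, fell from 23 to 26.1 CPM to 13.6 to 17.1 CPM (log2 fold change -0.68 ± 0.14, adjusted p = 0.0099).

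The counts for genes of the response to microbes stand beside the same shares of all genes, 5.71% higher and 3.21% lower. The heavy chain of immunoglobulin A, Igha, had 35, 35 and 24 counts in the SPF LKO libraries and 0, 0 and 2 counts in the GF LKO libraries, a ratio of 44.9 with a 95% counting interval of 12.1 to 376 (adjusted p = 0.0085). Among the 9 B and plasma cell markers tested only Igha was called, and 3 had a positive log2 fold change. DESeq2 also called Ighm, in the other direction (log2 fold change 1.055, adjusted p = 0.0449). Of 28 endotoxin and microbial sensing genes tested 0 were called higher and 1 lower, Tlr2, the receptor of bacterial lipopeptides, at 2.53, 2.8 and 2.7 CPM in SPF LKO and 1.71, 1.56 and 1.66 CPM in GF LKO libraries (log2 fold change -0.70 ± 0.19, adjusted p = 0.039, 0.11 without GF LKO replicate 3). Of 50 interferon-stimulated genes 3 were called higher, Ifitm3, Usp18 and Ifi27, with log2 fold changes of 0.56, 0.72 and 0.65. Of 25 class I presentation genes H2-T22 and Psme2 were called higher (0.49 and 0.51) and H2-Q7 lower (-1.03), and of 9 class II genes none. Class I genes are close copies, and their single values are uncertain. Apart from Igha only the call of Ifitm3 was kept without each of the 6 libraries, and that call was lost when gene length was taken into account (adjusted p = 0.25).

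The marker genes of other liver cells gave the cell makeup as far as whole tissue can. Hepatocyte markers dominated, with a summed level of 52300 to 81800 CPM in SPF LKO and 72900 to 85500 CPM in GF LKO libraries. The sum over 15 Kupffer cell and macrophage markers was 361 to 403 CPM in SPF LKO and 419 to 508 CPM in GF LKO, without overlap. Singly, 36.5% of all genes tested had no overlap either. The median log2 fold change of these markers in LKO was 0.19 at ZT2. With all labelled libraries it was 0.14, -0.20, -0.34, -0.40 and -0.18 at ZT6, ZT10, ZT14, ZT18 and ZT22. Lyz2 was called higher at ZT2 (35.7 to 45.4 against 52.3 to 73.4 CPM, up to 0.15 without GF LKO replicate 3). Ccr2, the receptor of recruited monocytes, was called lower (1.86 to 2.53 against 0.535 to 1.23 CPM, up to 0.12 without SPF LKO replicate 1). Of 13 endothelial markers Clec4g was called higher (0.53, up to 0.09 without SPF LKO replicate 1) and Kdr lower (-0.47, up to 0.16 without SPF LKO replicate 1), and the sums were 325 to 404 and 317 to 331 CPM. The 14 stellate cell and fibroblast markers summed to 460 to 511 CPM in SPF LKO and 401 to 450 CPM in GF LKO, also without overlap, with 0 called. The bile duct markers summed to 90.5 to 151 and 85 to 133 CPM, with Sox9 called lower (14.9, 15.1 and 9.99 against 5.57, 6.26 and 6.47 CPM, up to 0.13 without GF LKO replicate 1). The 9 B and plasma cell markers summed to 12.4 to 16.8 CPM in SPF LKO and 13.8 to 22.8 CPM in GF LKO, with overlap, and only Igha was called. T and NK cell, neutrophil and erythroid markers had 0 calls, and the neutrophil genes Ly6g, Mpo, Camp and Ngp were at 0 in all 6 LKO libraries. Of markers from neighbouring organs only the elastase Cela1, also made by liver, was called (59.5 to 79.7 against 111 to 139 CPM), while the pancreatic genes Ctrb1, Prss2 and Pnlip were at 0 counts. The part of these cell markers in the other results was not tested.

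The 14 pericentral markers summed to 11100 to 11400 CPM in SPF LKO and 11500 to 13800 CPM in GF LKO libraries, and the 14 periportal markers to 4930 to 5470 and 6950 to 8550 CPM, both without overlap. Among all genes tested, 36.5% singly had no overlap either. The median log2 fold change was 0.22 over the pericentral and 0.06 over the periportal list, with 9 of 14 positive in each. Pck1 and Arg1, both called higher, are part of the periportal sum. Of 14 pericentral genes Gulo (502 to 570 against 901 to 944 CPM, log2 fold change 0.75 ± 0.10, adjusted p = 0.0023) and Lhpp (0.69, up to 0.066 without SPF LKO replicate 1) were higher, and Tbx3 and Axin2, targets of the Wnt signal of the central vein, were lower. Tbx3 was 25.6, 31.3 and 18.4 CPM in SPF LKO and 10.0, 8.85 and 10.8 CPM in GF LKO libraries (log2 fold change -1.34 ± 0.21, adjusted p = 0.0042), and Axin2 fell from 7.65 to 10.0 CPM to 3.8 to 5.34 CPM, up to 0.13 without GF LKO replicate 1. Glul and Cyp2e1, the main pericentral enzymes, were not called (-0.05 and 0.13). Of 14 periportal genes Pck1 and Arg1 were higher, Sox9 lower, and Cyp2f2 had a log2 fold change of 0.06.

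Many ribosomal protein and respiratory chain transcripts, which are short, were called higher by a small amount. The counts stand beside 5.71% of all genes called higher and 3.21% lower. Of 43 cytosolic ribosomal protein genes 19 were called higher and 0 lower (median 0.55), as Rplp0 (156, 201 and 193 CPM in SPF LKO against 328, 299 and 322 CPM in GF LKO, log2 fold change 0.79 ± 0.12, adjusted p = 0.0038) and Rps14 (99.9, 146 and 137 against 223, 204 and 259 CPM). Of 47 nuclear respiratory chain genes 22 were called higher and 0 lower (median 0.40), among them Cox5b (22.5, 25.8 and 23.8 against 43, 40.9 and 36.6 CPM, log2 fold change 0.74 ± 0.11, adjusted p = 0.0035) and Ndufb7 (45.7, 50.6 and 49.9 against 88.2, 73.9 and 72.6 CPM). Each gene named here had all GF values above all SPF values. Without SPF LKO replicate 1 the counts were 6 and 6. Over all genes the log2 fold change ran with transcript length, from a median of 0.32 for genes of up to 1000 bases (15.01% called higher) to -0.15 for genes over 6000 bases (1.45% called higher and 5.66% lower), with a Pearson correlation across genes of -0.25, which is a description since genes are not independent. With this trend removed by gene length offsets, 844 genes were called in all, 14 of the ribosomal genes were called higher with a median of 0.37, and 10 of the respiratory genes with a median of 0.30. The male-biased list then held 7 genes called higher and the acute phase list 3.

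**Figure D3:**
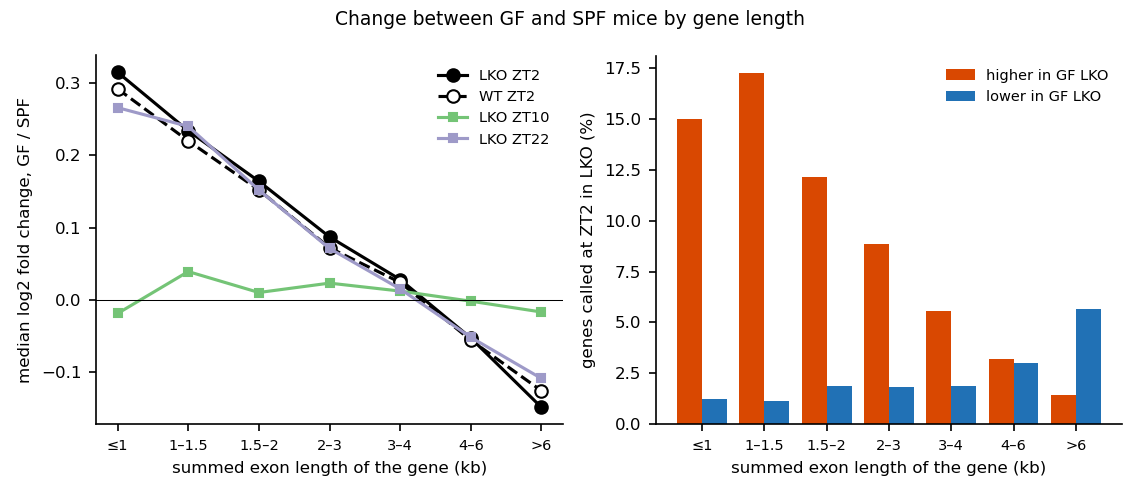
Genes binned by summed exon length (x axes, kb), with the median log2 fold change, GF over SPF, in LKO and WT mice at ZT2 and in LKO mice at ZT10 and ZT22 (left), and the percent of genes called higher and lower in GF LKO mice at ZT2 (right). At ZT2 both lines fell with length, in LKO from 0.32 for the shortest to -0.15 for the longest genes, while the ZT10 line stayed near 0.

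Several of the largest changes lay outside these groups. Among the increases were the unnamed transcripts 3930402G23Rik (4.54, 4.62 and 3.89 CPM in SPF LKO and 28, 14.2 and 16.9 CPM in GF LKO), Gm13775 (2.01, 0.234 and 0.309 against 3.21, 10.6 and 7.27 CPM), Gm32540 (1.4, 0.84 and 1.1 against 8.19, 2.59 and 5.29 CPM) and Gm14097 (0.872, 0.373 and 1.37 against 4.12, 3.89 and 5.13 CPM, up to 0.061 without SPF LKO replicate 1). All were separate, as the rule that named them required. The strand was not used in counting, so reads of an overlapping gene on the other strand could be included. The decreases held signaling genes. The Notch target Hes1 fell from 4.27, 5.84 and 5.08 CPM to 1.66, 1.51 and 0.856 CPM (log2 fold change -1.91 ± 0.30, adjusted p = 0.0044). Mme, the peptidase neprilysin, fell from 5.93, 5.56 and 10.1 CPM to 1.98, 2.05 and 1.23 CPM (log2 fold change -2.04 ± 0.30, adjusted p = 0.0035). Gnas, the stimulatory G protein alpha subunit, fell from 6.63, 2.9 and 5.17 CPM to 1.45, 1.4 and 0.481 CPM, Gse1 from 12.6, 5.65 and 6.63 CPM to 2.3, 2.54 and 2.03 CPM, and Spsb4 from 1.74, 1.96 and 0.796 CPM to 0.482, 0.324 and 0.107 CPM (adjusted p-values 0.0061, 0.0072 and 0.014, the last up to 0.065 without GF LKO replicate 3). Every SPF value exceeded every GF value in these 5 genes, as the rule that named them required, and all of them were low in counts.

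Smaller groups completed the lists, with counts that stand beside 5.71% of all genes called higher and 3.21% lower. Of 22 genes of amino acid starvation and endoplasmic reticulum stress only Pdia6 was called (0.49, up to 0.16 without SPF LKO replicate 1). Of 18 heat shock chaperones Ahsa1 and Hspe1 were called higher (0.61 and 0.62, up to 0.064 without SPF LKO replicate 1 and 0.1 without GF LKO replicate 1), and of 24 cell cycle genes Ccne2 (0.74, up to 0.17 without GF LKO replicate 1). Of 12 genes for long and unsaturated fatty acids only Elovl3 was called, and of 11 efflux and LXR genes Nr1h3 and Soat2, described above.

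In WT mice of the same ZT, GF and SPF livers differed in 1379 genes (10.1%), 834 higher in GF (6.13%) and 545 lower (4.01%). Of the genes called in LKO, 495 were called in WT with the same sign, which is 40.8% of the LKO calls and 35.9% of the WT calls, 0 were called with the opposite sign, and 1147 (94.6%) had the same sign, as did 72% of all genes tested. The comparisons share no libraries but were fitted with 1 estimate of spread. The WT number was 708 without SPF WT replicate 1, 480 without SPF WT replicate 3 and 773 without GF WT replicate 3. The difference between the genotypes was itself called by edgeR for 3 genes of 13596 (0.0221%), while 1117 had an unadjusted p under 0.05. Leaving out single libraries moved that number between 0 and 20, and it was 0 without SPF LKO replicate 3, GF LKO replicate 1, GF LKO replicate 3, SPF WT replicate 3, GF WT replicate 2 or GF WT replicate 3. All 3 had a larger increase in WT: Hmgcs1, Fdps and Lrtm1.

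**Figure D4:**
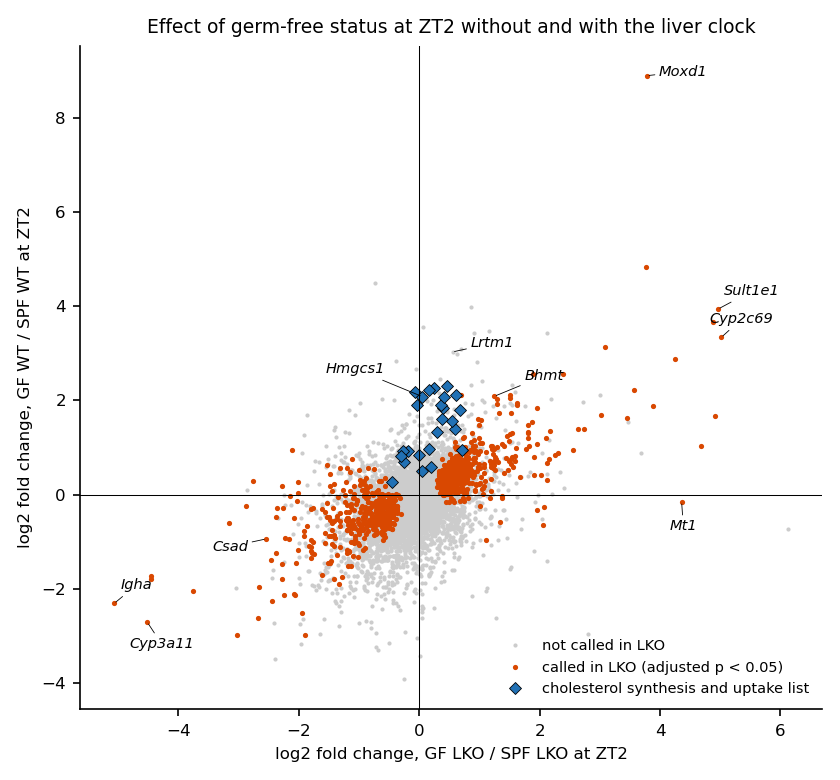
Log2 fold change, GF over SPF, in LKO mice (x axis) and WT mice (y axis) at ZT2, with 1 point per gene tested, genes called in LKO in orange, the cholesterol list as blue diamonds and some genes named. Hmgcs1 had a log2 fold change of 0.05 in LKO and 2.08 in WT.

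Hmgcs1 was 237, 219 and 168 CPM in SPF WT and 798, 849 and 997 CPM in GF WT libraries (log2 fold change 2.08, adjusted p = 0.00015). Its SPF LKO values, 398, 714 and 554 CPM, already lay above the SPF WT values, and its GF LKO values, 638, 556 and 530.3 CPM, lay below the GF WT values. The difference of the effects, LKO minus WT, was -2.03 ± 0.27 on the log2 scale (adjusted p = 0.039). Fdps, which makes farnesyl diphosphate, was 8.76, 12 and 11 CPM in SPF LKO, 12, 9.98 and 9.04 CPM in GF LKO, 3.56, 4.93 and 3.61 CPM in SPF WT and 11.3, 15.7 and 18.3 CPM in GF WT libraries (difference -1.94 ± 0.28, adjusted p = 0.043). Across the 25 cholesterol genes at ZT2 the WT median was 1.56, with 22 called higher in WT against 2 in LKO. An unadjusted p for the difference under 0.05 was found for 21 of 25, among them Sqle (-0.07 in LKO, 2.18 in WT) and Msmo1 (0.46 and 2.3). Their adjusted p-values for the difference by edgeR were 0.071 and 0.1, and by DESeq2 2.39e-06 and 2.91e-05, so that DESeq2 called both.

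The start of Hmgcs1 is shown because its gene carries that difference. RefSeq (GRCm38.p6) places it at chr13:119690101-119690400 on the plus strand, and capitals mark the sterol regulatory element TCACNCCA.
Hmgcs1: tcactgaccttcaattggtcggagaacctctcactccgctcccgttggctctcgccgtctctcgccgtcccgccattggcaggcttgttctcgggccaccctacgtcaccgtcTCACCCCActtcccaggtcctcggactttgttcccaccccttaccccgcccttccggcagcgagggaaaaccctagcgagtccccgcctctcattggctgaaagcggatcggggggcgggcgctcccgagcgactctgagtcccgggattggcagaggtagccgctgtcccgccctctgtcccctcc
The element, searched on both strands, occurred once, starting 137 bases before the start site, and 4.4% of 32851 promoters held it.

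Other effects lay apart in size without a difference called by edgeR, while DESeq2, the alternative tool, called 70 differences in all. Cyp3a11 fell by a log2 fold change of -4.51 in LKO and -2.72 in WT (difference -1.8 ± 0.33, adjusted p = 0.1 by edgeR and 8.48e-05 by DESeq2), and its SPF WT values were 4859, 5635 and 4853 CPM and its GF WT values 1137, 538 and 661 CPM. Acute phase genes had a median of 0.48 in LKO and -0.12 in WT. Of these 29 genes 10 had an unadjusted p for the difference under 0.05, beside 1117 of all 13596 genes, and edgeR called 0. For the members called in LKO (Orm1, Crp, Apcs, Serpina3k and Hpx) the adjusted p for the difference by DESeq2 was between 0.168 and 0.94. Mt1 had a log2 fold change of 4.36 in LKO and -0.16 in WT (unadjusted p for the difference 0.0059, adjusted p = 0.39). Pdk4 fell in LKO (-1.0) and was 0.53 in WT (unadjusted p 0.0004, adjusted p = 0.14 by edgeR), and Nudt7, Vnn3, Tbx3 and Mme were called in LKO at 0.81, -0.69, -1.34 and -2.04 and stood at -0.07, 0.09, -0.05 and -0.14 in WT. DESeq2 called the difference for these 5 genes, with adjusted p-values of 0.00401 for Pdk4, 0.00299 for Nudt7, 0.00348 for Vnn3, 0.014 for Tbx3 and 0.000453 for Mme. The clock genes Dbp, Per3 and Tef, not called in LKO, had log2 fold changes of -2.44, -1.79 and -1.09 in WT. Their adjusted p-values for the difference were 0.28, 0.3 and 0.14 by edgeR and 0.0752, 0.114 and 0.00299 by DESeq2. Thus only the difference of Tef was called, and by DESeq2 alone. The output factor Hlf, called lower in LKO, had an adjusted p for the difference of 0.991 by DESeq2. The neutrophil genes S100a8 and S100a9 were called lower in WT (-2.05 and -2.51) and had log2 fold changes of -0.08 and 0.05 in LKO. Called in both genotypes were, for example, Acmsd (1.96 and 1.83), Slc40a1 (-0.64 and -0.65) and Gulo (0.75 and 0.66).

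At the other 5 ZT the same contrast in other LKO mice called 42 genes at ZT6 (0.309%), 132 genes at ZT10 (0.982%), 8 genes at ZT14 (0.0601%), 494 genes at ZT18 (3.71%) and 305 genes at ZT22 (2.25%). At ZT14 and ZT18 1 library each went against its label: Npas2, which lay between 16.5 and 41.6 CPM in the other LKO libraries and at no more than 2.54 CPM in the WT libraries of these times, was 0.21 CPM in the library labelled SPF LKO replicate 2 at ZT14 and 1.78 CPM in the library labelled SPF LKO replicate 1 at ZT18. Without these libraries the numbers called were 3 at ZT14 and 61 at ZT18. Of the genes called at ZT2, 96.0% kept their sign at ZT6, against 72.1% of all genes tested at both times. The ZT10 share was 81.7% (63.1% of all genes), the ZT14 share 70.3% (59.1%), the ZT18 share 91.3% (69.8%) and the ZT22 share 97.3% (75.6%). The same sign throughout was found for 675 of 1193 genes (56.6%, against 27.4% of all genes). Without the library in doubt the share was 75.9% at ZT14 (60.7% of all genes) and 88.9% at ZT18 (68.1%). The number called at both times with the same sign was 28, 44, 4, 164 and 177, and without the library in doubt 2 at ZT14 and 33 at ZT18.

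**Figure D5:**
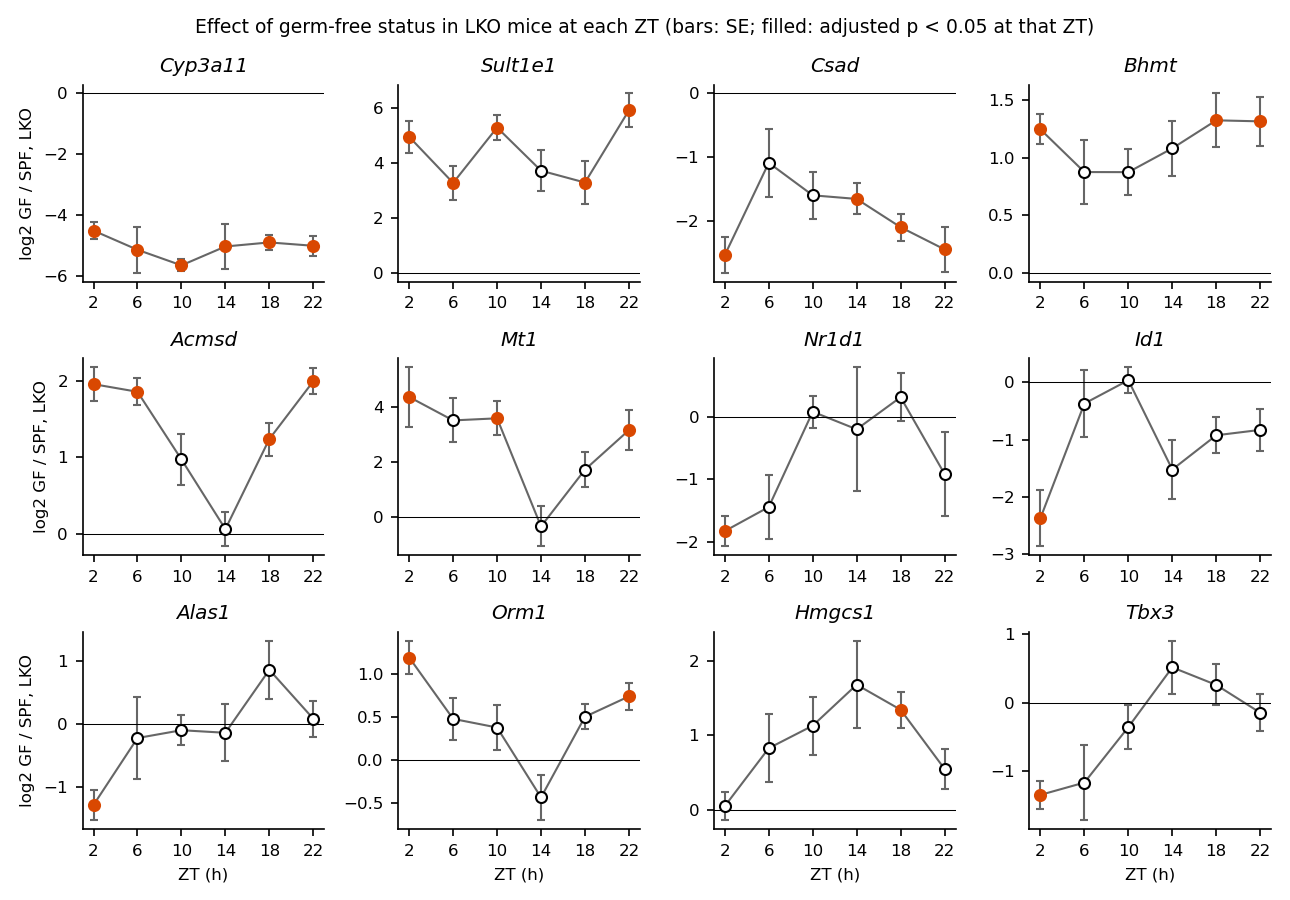
Log2 fold change (GF minus SPF, LKO mice, y axis) of selected genes at each ZT (x axis, hours), with bars for the standard error and filled points where the gene was called at that ZT. Cyp3a11 stayed between -5.66 and -4.51 at all 6 ZT.

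Cyp3a11 was called at each of the 6 ZT, with log2 fold changes of -4.51, -5.14, -5.66, -5.04, -4.9 and -5.01, although at ZT14 the call was lost without the library in doubt (-5.13, adjusted p = 0.07). Bhmt had 0.88, 0.88, 1.08, 1.33 and 1.32 from ZT6 on, beside 1.25 at ZT2. Csad had -1.09, -1.6, -1.66, -2.1 and -2.45, beside -2.54. Alas1 was called at ZT2 among the ZT and had -0.22, -0.10, -0.14, 0.86 and 0.09 later in the day. Hmgcs1, level at ZT2, had 0.83, 1.13, 1.68, 1.34 and 0.55, called at ZT18 (adjusted p = 0.02, 0.054 without the library in doubt). The LKO median of the 25 cholesterol genes, 0.20 at ZT2, was 0.73, 1.05, 0.98, 0.96 and 0.55 from ZT6 on, with the libraries in doubt included. The test of ZT2 against the mean of the other 5 ZT called 0 of 14234 genes (0%; edgeR, smallest adjusted p = 0.273), with 1544 at an unadjusted p under 0.05, and DESeq2 called 1.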

How the data were processed

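Liver RNA was sequenced after TRIzol extraction and library preparation with an Illumina stranded mRNA kit. The deposited values are raw read counts for each gene. Per the labels and methods, the authors aligned single-end reads to mm10 with STAR 2.6.1b and counted exons with featureCounts 2.0.0, without use of strand and without reads in several places or genes. All columns were matched to labelled samples (0 unused). Each mouse gave 1 library, and the methods name no pooling.

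The 12 libraries of ZT2 (18341726 to 20237288 counts each) were fitted by edgeR 4.0.16 (R 4.3.3) with 4 group means, TMM factors, filterByExpr and the quasi-likelihood test, and p-values were adjusted by Benjamini-Hochberg over all genes tested. The study used DESeq2, which served here as an alternative (1.42.0). Standard errors were derived from the quasi-F statistic. Python 3.11.15, pandas 2.3.3 and matplotlib 3.10.9 made tables and figures. Counting intervals (exact, 95%) cover counting error only.

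Named genes were the 12 largest called increases and decreases with separate groups and a mean log2 CPM no lower than 1, up to 6 called members of each of 38 gene lists (or, with none called, the 3 most abundant), the clock genes, genes the study names, up to 10 genes of smallest p in each difference test, and, of 12 marker lists, the 3 most abundant and any called. For the genes named by the size of their change, separate groups were thus a condition of the rule. The members and lists were chosen with earlier results of these data known. Exceptions are Hamp, Cyp7a1, Saa1, Saa2 and Mt2, named after their values were seen. A few genes that the rule names are not reported here.

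On simulated counts for 13596 genes, the comparison of GF LKO with SPF LKO recovered 17 of 50 genes changed 1.5-fold, 40 of 50 changed 2-fold, 49 of 50 changed 4-fold and 50 of 50 changed 8-fold, with 5 other calls. The test of the difference between genotypes recovered 3, 13, 49 and 50, with 10 others. Alternatives covered scaling, filters, tool, libraries fitted, transcript length and each library. Coordinates are those of GRCm38, and promoter sequences those of RefSeq.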

Additional observations from a re-analysis of the deposited data

Results flagged for a closer look

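The difference of the microbiota effect between LKO and WT mice at ZT2, tested as a contrast in the joint fit, was called by edgeR for 3 genes. Lrtm1, a membrane protein with leucine-rich repeats, had a difference, LKO minus WT, of -2.48 on the log2 scale (adjusted p = 0.039). Its values were 61.4, 35.3 and 43.7 CPM in SPF LKO, 52, 89.3 and 64.8 CPM in GF LKO, 6.2, 3.38 and 4.54 CPM in SPF WT and 34.6, 43.2 and 37.7 CPM in GF WT libraries, so that the increase was called in WT (3.03, adjusted p = 0.00015) and not in LKO (0.55, adjusted p = 0.14), where the groups overlapped. Hmgcs1 had a difference of -2.03 (adjusted p = 0.039) and Fdps of -1.94 (adjusted p = 0.043), with the library values given in the report.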

How the results depend on the processing

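GF LKO against SPF LKO at ZT2 (1213 calls) gave 1895 calls with no filter beyond 1 count, 1974 with only the 6 LKO libraries, 256 with a log2 fold change of at least 1 required, and 342 to 1055 when each LKO library was left out. The WT comparison (1379) gave 2088 with no filter and 480 to 1416 with each library left out. The genotype difference (3) gave 423 with no filter, 70 by DESeq2, 7 with the replicate block and 0 to 20 with each library left out. The ZT difference (0) gave 401 with no filter and 1 by DESeq2. ZT14 (8) gave 3 and ZT18 (494) gave 61 without the library in doubt. The cause of these shifts was not tested, apart from the fewer libraries fitted and the stricter rule. With the replicate number as a block the LKO count was 1301, but the numbers did not pair the mice (same-number correlations of deviations -0.15, 0.00 and 0.01 in LKO). The other settings left the LKO count within 1.5 times, with 844 under gene length offsets, chosen after the data were seen (686 of these also in the reported calls), and 1773 by DESeq2. Of 156 named genes called, 73 kept the call without each of the 6 libraries, 93 lost it in at least 1 setting, and 0 reversed. At this depth, spread and number of mice most 1.5-fold changes simulated were missed.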
